A study of Mus musculus with 28 samples.

Results

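The Bcl2 family of cell death genes is described here by 10 genes, chosen by their symbols and not by their values, though with earlier results of these data known. All 10 were found among the 25251 genes of the deposited table. They are the pro-survival genes Bcl2, Bcl2l1 and Mcl1, the effectors Bax and Bak1, and the BH3-only genes Bcl2l11, Bbc3, Pmaip1, Bid and Bad. They were compared between endothelial cells (ECs), mesenchymal stromal cells (MSCs) and bone marrow mononuclear cells (MNCs), and between mice with and without an internal tandem duplication of the receptor Flt3.

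Proteins of the Bcl2 family decide whether the outer mitochondrial membrane stays closed. Pro-survival members hold the effectors in check, effectors open the membrane and release cytochrome c, and BH3-only proteins are induced or activated by stress and engage the other members. In blood-forming tissue, Mcl1 and Bcl2l1 are known to be needed for the survival of progenitors and red cell precursors, and Bcl2 for that of mature lymphocytes.

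Mice were C57 BL6, 8 to 10 wk old, and either Flt3+/+ or homozygous for a knock-in of the duplication in their own Flt3 gene (Flt3ITD/ITD), so that every cell of the animal carried it, stromal cells included. ECs were sorted as CD45-Ter119-CD31+ cells and MSCs as CD45-Ter119-CD31-CD166-Sca1+ cells from bone lining cells, at 100 cells per library. MNCs were sorted mononuclear cells of the bone marrow with no marker gate stated, at 200 cells per library. The paper calls MNCs total marrow cells, but its wording and the labels also give bone lining cells as their source. Whether MNCs went through the collagenase digestion used for bone lining cells is thus unclear. Each genotype had 5 EC, 5 MSC and 4 MNC libraries, 28 in all, each from a single mouse. The number of cells differed between MNCs and the other populations, so that population and cell number cannot be told apart in those comparisons. The same holds for any difference in preparation.

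Total counts ranged from 6377013 to 33880743 per library. Cdh5, which encodes VE-cadherin, had at least 164.74 RPKM in every EC library, Pdgfrb at least 11.43 in every MSC library, and Ptprc, which encodes CD45, at least 124.93 in every MNC library. The duplication does not remove Flt3, so its level is no check of the genotype. The EC library of Flt3ITD/ITD replicate 2 held 778 Ptprc counts, where the other EC libraries held at most 3, and the MSC library of Flt3ITD/ITD replicate 5 held 32, and these libraries had 30100 and 6330 RPKM summed over 10 neutrophil markers. Replicate 1 of Flt3+/+ ECs had no Ptprc count but 1320 RPKM of neutrophil and 4210 RPKM of erythroid markers, above the other Flt3+/+ EC libraries. Results that rest on the libraries with 778 and 32 Ptprc counts are given with and without them. RPKM is the read count scaled to transcript length and library size, and a count of 3 was taken as the floor of detection, which covers counting error only because amplified reads are not independent molecules.

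Mcl1 was the most abundant member in ECs and MSCs, and Bid in MNCs. In ECs the mean RPKM ran from Mcl1 (82.2) through Bad (28.9), Bax (22.5), Bcl2l1 (22), Bcl2 (4.85) and Bcl2l11 (4.46) to Pmaip1, Bak1, Bbc3 and Bid, all at 1.14 or below. MSCs had the same first 6 genes in the same order, with Mcl1 at 64.6 and Bad at 41.6, and Bak1 was last at 0.226. In MNCs the order was Bid (58.9), Mcl1 (45.3), Bax (29.9), Bad (29.8), Bcl2l1 (16), Bcl2 (6.18), Pmaip1 (4.75), Bcl2l11 (3.73), Bak1 (1.85) and Bbc3 (0.238). Of the neighbors in these orders, only Bak1 and Bbc3 in MNCs did not overlap in their libraries. All others did. Compared within each library, Mcl1 lay above Bad in 9 of 10 EC and 7 of 10 MSC libraries, and above Bax in 8 of 8 MNC libraries. Bid lay above Mcl1 in 6 of 8 MNC libraries. In ECs, Bad lay above Bax in 4 of 10 libraries and Bcl2 above Bcl2l11 in 3 of 10. The order given is thus that of the means, and it held within libraries to differing degrees.

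**Figure D1:**
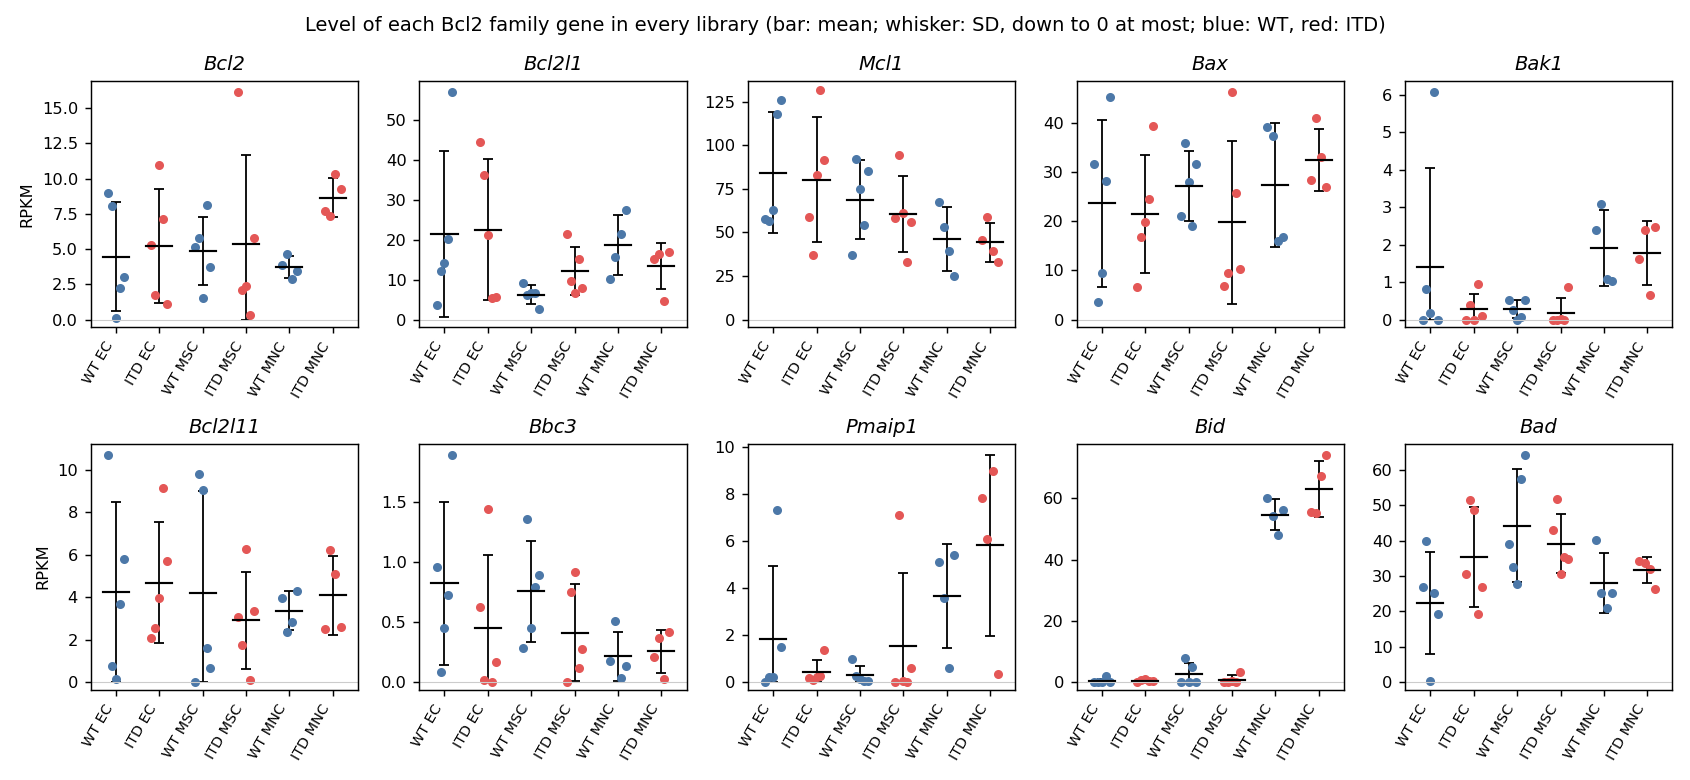
RPKM of each of the 10 genes (vertical axes, linear, in RPKM) in every library of the 6 groups, where WT is Flt3+/+ and ITD is Flt3ITD/ITD. Points are libraries, horizontal bars are means and whiskers are SD drawn down to 0 at most. Bid stands at 47.9 RPKM or more in every MNC library and at 7.95 or less in every other library, and Bcl2 in MNCs separates the genotypes.

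The spread between libraries was wide in the populations of 100 cells. The coefficient of variation of a member had a median of 79.8% in ECs and 80.8% in MSCs, against 40.2% in MNCs. The least variable member was Mcl1 in ECs (40.4%), Bad in MSCs (29.4%) and Bid in MNCs (14%). Of 100 values of a member in a library, 13 lay at or under 3 counts in ECs and 14 in MSCs, against 2 of 80 in MNCs. Most of these were of Bak1 and Bid.

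Mcl1, which encodes a short-lived inhibitor of the effectors, was higher in ECs and in MSCs than in MNCs. In ECs it ranged from 36.8 to 131.47 RPKM with a median of 72.88, in MSCs from 33.13 to 94.29 with a median of 59.85, and in MNCs from 24.94 to 67.4 with a median of 42.66. The ranges of the 3 populations overlapped. The log2 fold change was 0.74 (SE 0.249, adjusted p = 0.0177) between ECs and MNCs and 0.63 (SE 0.249, adjusted p = 0.0424) between MSCs and MNCs, and 0.11 (SE 0.232, adjusted p = 0.772) between ECs and MSCs. The call against MSCs was lost with limma on log2(RPKM + 1), where the log2 difference was 0.49 (adjusted p = 0.122), and with a block for replicate number (0.55, adjusted p = 0.145). With the genotypes taken alone, Mcl1 passed for ECs over MNCs in Flt3ITD/ITD but not in Flt3+/+ libraries (0.66, adjusted p = 0.159), and for MSCs over MNCs in neither (0.59, adjusted p = 0.223 in Flt3+/+; 0.67, adjusted p = 0.162 in Flt3ITD/ITD).

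Immediate-early genes, a list of 14 genes that dissociation of tissue is known to induce, differed between the same libraries. Their summed RPKM was 1640 to 5420 in ECs and MSCs and 52.2 to 964 in MNCs. Within MNCs, replicates 1 and 2 had sums of 805 and 679 in Flt3+/+ and 964 and 628 in Flt3ITD/ITD mice, whereas replicates 3 and 4 had 85.6 and 73.0, and 79.1 and 52.2. Mcl1 in the same order was 67.4, 53.08, 45.74 and 58.92 RPKM in the first 4 of these libraries and 39.47, 24.94, 39.58 and 33.02 in the other 4, without overlap. The same libraries also differed in blood cell markers. Erythroid sums were 92.9, 37600, 145000 and 131000 in Flt3+/+ MNCs, in the order of replicates 1 to 4. In Flt3ITD/ITD MNCs they were 11500, 22300, 2150 and 8730. Neutrophil sums were 212000, 182000, 172000 and 173000 in Flt3+/+, and 184000, 162000, 43900 and 60200 in Flt3ITD/ITD MNCs. The part of immediate-early genes or of cell content in the level of Mcl1 was not tested. Here these cannot be told apart. Across all 28 libraries, over 13726 genes on log2(RPKM + 1), the genes whose pattern was most like that of Mcl1 were AK213359 (Pearson r = 0.866), the stress-induced kinase gene Plk3 (0.838) and the RNA helicase gene Ddx5 (0.824). These points share population and library, and the values are a description.

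**Figure D2:**
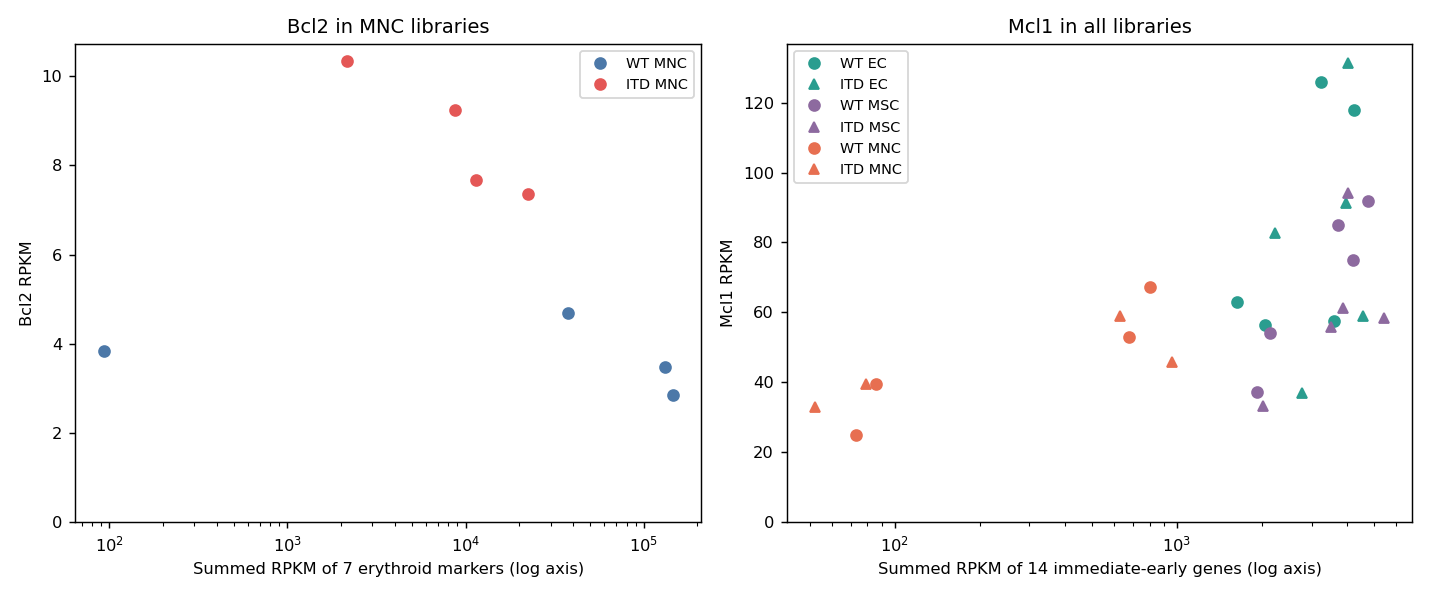
Left, Bcl2 RPKM (vertical axis) against the summed RPKM of 7 erythroid markers (log axis) in the 8 MNC libraries, by genotype. Right, Mcl1 RPKM against the summed RPKM of 14 immediate-early genes (log axis) in all 28 libraries, with circles for Flt3+/+ (WT) and triangles for Flt3ITD/ITD (ITD). The Flt3+/+ MNC library with the lowest erythroid sum (92.9) has 3.84 RPKM of Bcl2, the other 3 Flt3+/+ libraries have higher erythroid sums than any Flt3ITD/ITD library, and the 4 MNC libraries with low immediate-early sums have the 4 lowest MNC levels of Mcl1.

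Windows of 300 bases around the start sites of Bid, Mcl1 and Bcl2 are shown because Bid and Mcl1 were the most abundant members and differed between populations in opposite directions, and Bcl2 had the smallest p-value between genotypes. Each runs 5′ to 3′ on the strand of the gene, from RefSeq on GRCm38.p6. The start sites used for Mcl1 and Bid lie inside the span of the gene in RefSeq, and other starts were not examined. Capitals mark GGGCGG, the core of the GC box, and CGGAAG, a core bound by ETS factors, on either strand, and no match overlapped another. Bid lies on the minus strand at chr6:120916775-120917074, Mcl1 on the plus strand at chr3:95658471-95658770, and Bcl2 on the minus strand at chr1:106714241-106714540.
Bid: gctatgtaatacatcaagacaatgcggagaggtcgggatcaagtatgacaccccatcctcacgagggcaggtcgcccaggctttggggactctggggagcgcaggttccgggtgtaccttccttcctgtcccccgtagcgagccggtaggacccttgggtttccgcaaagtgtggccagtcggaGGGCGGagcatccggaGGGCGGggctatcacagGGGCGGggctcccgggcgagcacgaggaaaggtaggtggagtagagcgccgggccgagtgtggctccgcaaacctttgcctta
Mcl1: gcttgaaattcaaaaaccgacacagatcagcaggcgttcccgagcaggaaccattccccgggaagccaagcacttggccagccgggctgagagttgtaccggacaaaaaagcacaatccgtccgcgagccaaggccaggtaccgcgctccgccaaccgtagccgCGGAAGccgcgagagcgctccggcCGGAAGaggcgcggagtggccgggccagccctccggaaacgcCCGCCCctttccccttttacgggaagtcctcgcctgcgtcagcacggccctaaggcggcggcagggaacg
Bcl2: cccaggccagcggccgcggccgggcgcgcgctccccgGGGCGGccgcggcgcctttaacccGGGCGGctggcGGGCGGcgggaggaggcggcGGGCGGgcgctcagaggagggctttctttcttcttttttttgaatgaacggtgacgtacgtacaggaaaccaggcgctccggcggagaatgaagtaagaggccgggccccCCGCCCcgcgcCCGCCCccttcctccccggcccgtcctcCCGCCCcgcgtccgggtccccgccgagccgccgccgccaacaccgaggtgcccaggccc

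GGGCGG occurred 3 times in the window of Bid, once in that of Mcl1 and 7 times in that of Bcl2, where 35.7% of 32851 windows of the same length held it at least once. CGGAAG occurred 2 times in the window of Mcl1 and in neither of the others, and 16.9% of all windows held it. TTCNNNGAA, the spacing bound by STAT factors, which act below the Flt3 receptor, was in none of the 3 windows and in 8.3% of all windows. These are matches of letters in 300 bases and say nothing of binding.

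Bcl2l1, which encodes Bcl-xL, had a higher mean in ECs than in MSCs. It ranged from 3.56 to 56.96 RPKM in ECs with a median of 17.26, from 2.61 to 21.46 in MSCs with a median of 7.38, and from 4.79 to 27.57 in MNCs with a median of 16.06. All 3 ranges overlapped. The log2 fold change between ECs and MSCs was 1.06 (SE 0.455, adjusted p = 0.0751), a single call. Leaving out an MNC library, which does not enter this difference, left the fitted value at 1.06. Leaving out any of 7 of the 10 EC and 10 MSC libraries ended the call. These were replicate 5 of Flt3+/+ ECs (0.68, adjusted p = 0.232), replicates 1 (0.91, 0.137) and 2 (0.93, 0.133) of Flt3ITD/ITD ECs, replicate 5 of Flt3+/+ MSCs (0.96, 0.122) and replicates 2 (1.03, 0.109), 3 (0.98, 0.119) and 5 (0.99, 0.118) of Flt3ITD/ITD MSCs. It was also lost without both libraries that held leukocyte transcripts (0.86, adjusted p = 0.194), with a block for replicate number (0.69, adjusted p = 0.32), and in Flt3ITD/ITD libraries alone (0.58, adjusted p = 0.583), without replicates 2 and 4 of Flt3+/+ MSCs (1.07, adjusted p = 0.135) and with limma on log2(RPKM + 0.1) (0.93, adjusted p = 0.103). MNCs did not pass against ECs (log2 fold change 0.31 higher in ECs, SE 0.479) or MSCs (-0.76 for MSCs over MNCs, SE 0.475, adjusted p = 0.207). In Flt3+/+ libraries alone Bcl2l1 passed as lower in MSCs than in MNCs (-1.66, adjusted p = 0.0638). The most similar patterns to Bcl2l1 were weaker than those of Mcl1, with Ankrd12 (r = 0.685), Gpatch11 (0.67) and Zfp959 (0.633) over 28 libraries.

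Bcl2 itself did not pass between any populations, with log2 fold changes of -0.19 (SE 0.577) for ECs over MSCs, -0.28 (SE 0.61) for ECs over MNCs and -0.1 (SE 0.611) for MSCs over MNCs. It ranged from 0.09 to 10.94 RPKM in ECs and from 0.32 to 16.1 in MSCs, and both ranges covered that of MNCs, 2.85 to 10.35. Mccc2 (r = 0.708), Pgm2 (0.708) and Atf7ip (0.705) had the patterns most like that of Bcl2.

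In the mean, Mcl1 made up most of the transcripts of the 3 pro-survival members in each population. Its share of their RPKM was 74.9% ± 14.6 (SD, n = 10) in ECs, 80.8% ± 10.7 (SD, n = 10) in MSCs and 65.9% ± 11.8 (SD, n = 8) in MNCs. It fell to 49.2% in replicate 2 of Flt3ITD/ITD ECs and 44.5% in replicate 4 of Flt3+/+ MNCs. Bcl2l1 made up 20.2%, 12.8% and 24.5%, and Bcl2 4.94%, 6.44% and 9.55%. The summed RPKM of the 3 genes was 109 ± 38 (SD, n = 10) in ECs, 78.9 ± 20.4 in MSCs and 67.5 ± 10.9 (SD, n = 8) in MNCs. Bcl2a1a, Bcl2a1b and Bcl2a1d, pro-survival genes outside the members, are left out of these shares and sums. They averaged 8.07, 9.03 and 8.22 RPKM in MNCs.

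**Figure D3:**
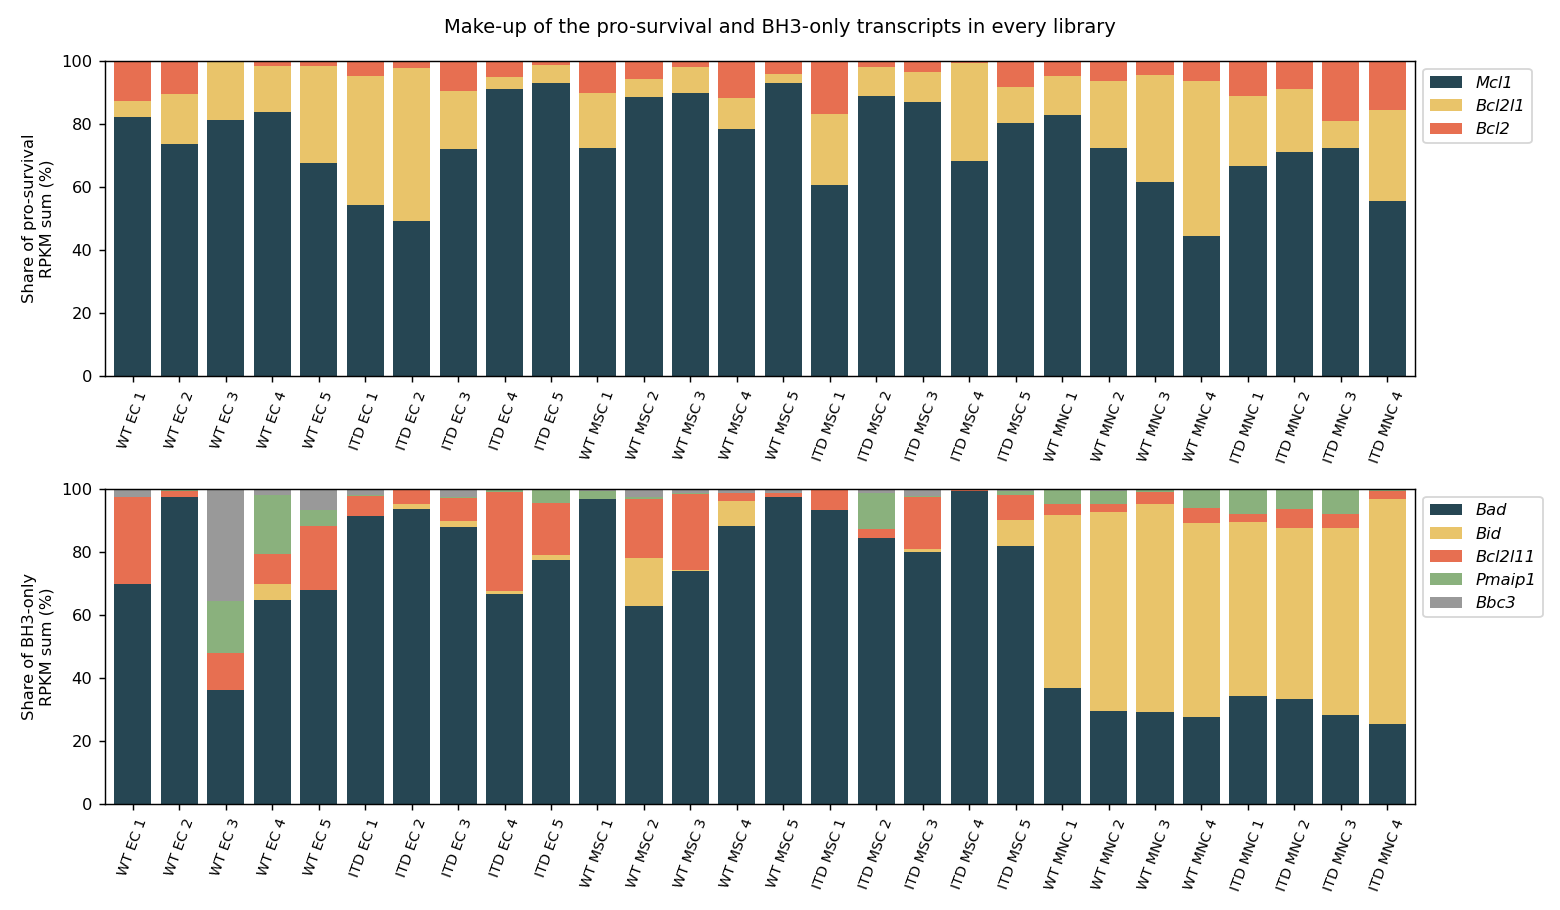
Share (vertical axes, percent) of each gene in the summed RPKM of the 3 pro-survival genes (top) and the 5 BH3-only genes (bottom), with one bar per library, labeled by genotype (WT, Flt3+/+; ITD, Flt3ITD/ITD), population and replicate. Bid holds 54.3 to 71.4% of the BH3-only sum in MNCs and at most 15.3% in any EC or MSC library. The EC library of Flt3+/+ replicate 3 has a BH3-only sum of only 1.27 RPKM.

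Of the transcripts of Bax and Bak1, the effectors among the members, Bax made up nearly all. Its mean was 22.5 ± 13.9 RPKM (SD, n = 10) in ECs, 23.5 ± 12.6 in MSCs and 29.9 ± 9.65 (SD, n = 8) in MNCs, and the largest log2 difference between populations, -0.5 (SE 0.414) for ECs over MNCs, did not pass (adjusted p = 0.345). Bak1, the other effector, was higher in MNCs than in MSCs. It had 2.39, 3.1, 1.1 and 1.04 RPKM in Flt3+/+ MNCs and 1.61, 2.4, 0.66 and 2.48 in Flt3ITD/ITD MNCs, and 0.88 at most in MSCs, where 5 of 10 libraries had at most 3 counts. Only the MSC library of Flt3ITD/ITD replicate 5, which held leukocyte transcripts, overlapped the MNC range. The log2 fold change for MSCs over MNCs was -3.02 (SE 1.26, adjusted p = 0.0528), and -5.31 (adjusted p = 0.00166) without that library. It did not pass in either genotype alone (-2.76, adjusted p = 0.253 in Flt3+/+; -3.28, adjusted p = 0.183 in Flt3ITD/ITD) or without replicates 2 and 4 of Flt3+/+ MSCs (-2.86, adjusted p = 0.124). In ECs Bak1 ranged from 0 to 6.07 RPKM and did not pass against MNCs (-1.66, SE 1.2, adjusted p = 0.272). For ECs over MSCs the log2 fold change was 1.36 (SE 1.17, adjusted p = 0.407). Bak1 did pass as higher in ECs than in MSCs without both libraries that held leukocyte transcripts, and without replicate 5 of Flt3ITD/ITD MSCs alone. Its median in ECs was 0.14 RPKM, and 4 of 10 EC libraries had no count. Bok, an effector-like gene outside the members, had 12.9 RPKM in ECs, 7.23 in MSCs and 0.218 in MNCs.

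Bid, which encodes the BH3-only protein that caspase 8 cleaves below death receptors, separated MNCs from both stromal populations. In MNCs it had 60.14, 54.36, 47.9 and 56.3 RPKM in Flt3+/+ and 55.69, 55.17, 67.29 and 74.11 in Flt3ITD/ITD mice. In ECs it had 0.04, 0, 0, 1.95 and 0 in Flt3+/+ and 0, 0.81, 1.15, 0.31 and 0.56 in Flt3ITD/ITD mice. In MSCs it had 0, 7.95, 0.12, 5.11 and 0.03 in Flt3+/+ and 0, 0, 0.33, 0.02 and 3.43 in Flt3ITD/ITD mice. Every MNC library lay above every EC and MSC library, and 10 of the 20 EC and MSC libraries had 3 counts or fewer. Of all 16897 genes tested, 18.5% separated ECs from MNCs, 21.5% separated MSCs from MNCs and 8.36% separated ECs from MSCs without overlap.

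The log2 fold change of Bid was -7.12 (SE 1.4, adjusted p = 0.000183) for ECs over MNCs and -5.36 (SE 1.3, adjusted p = 0.00138) for MSCs over MNCs. Both calls held in each of the 28 fits that left out a library, although some of these left out a library of the population not compared, which bears little on the difference. The size rested on the few stromal libraries with counts, and became -9.64 for ECs over MNCs without replicate 4 of Flt3+/+ ECs and -6.79 for MSCs over MNCs without replicate 5 of Flt3ITD/ITD MSCs. The MSC libraries with the most Bid, replicates 2 and 4 of Flt3+/+ mice, held 512 and 285 Bid counts beside 0 and 1 counts of Ptprc. Without this pair the log2 fold change was -8.09 (adjusted p = 0.000265), an alternative chosen after seeing the data. The MSC library of Flt3ITD/ITD replicate 5 had 70 Bid counts beside 32 of Ptprc.

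The sum of the BH3-only members was 97.4 ± 13.4 RPKM (SD, n = 8) in MNCs, 35.6 ± 15.3 (SD, n = 10) in ECs and 48.4 ± 11.8 (SD, n = 10) in MSCs. Bid contributed 60.8% ± 6.05 of it in MNCs, 1.14% ± 1.58 in ECs and 3.25% ± 5.33 in MSCs. Bad, whose protein is held inactive by survival kinases, contributed 30.5% ± 3.83 in MNCs, 75.2% ± 18.4 in ECs and 85.8% ± 11.6 in MSCs. These sums and shares cover the members alone and were not tested. Bik, a BH3-only gene outside the members, is left out of them and had 22.6 RPKM in ECs, 0.438 in MSCs and 0.326 in MNCs.

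Bad ranged from 0.46 to 51.54 RPKM in ECs with a median of 26.84, from 27.65 to 64.13 in MSCs with a median of 37.32, and from 21.08 to 40.27 in MNCs with a median of 29.16. The ranges overlapped. ECs over MSCs gave a log2 fold change of -0.8 (SE 0.378, adjusted p = 0.111), which passed without replicate 3 of Flt3+/+ ECs, the library with 0.46 RPKM (-0.64, adjusted p = 0.0356), as it did without replicate 2 of Flt3+/+ ECs (adjusted p = 0.0655), replicate 2 of Flt3ITD/ITD ECs (0.087) or replicate 3 of Flt3+/+ MSCs (0.0995). Bad also passed as lower in ECs with DESeq2 (-0.87, adjusted p = 0.0503), RLE normalization (-0.87, adjusted p = 0.0805), limma on log2(RPKM + 1) (-0.84, adjusted p = 0.0913) and without both libraries that held leukocyte transcripts (-0.93, adjusted p = 0.0906).

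Pmaip1, which encodes Noxa, an antagonist of Mcl1 and a target of p53, was higher in MNCs. It had 5.13, 3.57, 0.6 and 5.42 RPKM in Flt3+/+ and 7.84, 6.1, 8.97 and 0.34 in Flt3ITD/ITD MNCs, with medians of 5.275 in MNCs, 0.225 in ECs and 0.115 in MSCs. In ECs the replicate 4 library of Flt3+/+ mice (7.3 RPKM) and in MSCs the replicate 2 library of Flt3ITD/ITD mice (7.09 RPKM) reached into the MNC range. The log2 fold change was -2.56 (SE 1.08, adjusted p = 0.0543) for ECs over MNCs and -2.64 (SE 1.08, adjusted p = 0.0487) for MSCs over MNCs, and these became -3.39 (adjusted p = 0.0153) and -4.31 (adjusted p = 0.00199) without the respective library. Without replicate 1 of Flt3+/+ MSCs the latter was -3.22 (adjusted p = 0.0239). The call against ECs was lost in Flt3+/+ libraries alone (-1.3, adjusted p = 0.542), and that against MSCs in Flt3ITD/ITD libraries alone (-1.7, adjusted p = 0.436) and without replicates 2 and 4 of Flt3+/+ MSCs (-2.44, adjusted p = 0.122).

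Bcl2l11, which encodes Bim, and Bbc3, which encodes Puma, did not pass between any populations. Bcl2l11 had means of 4.46 ± 3.44 RPKM (SD, n = 10) in ECs, 3.57 ± 3.59 in MSCs and 3.73 ± 1.41 (SD, n = 8) in MNCs. Bbc3 had 0.638 ± 0.638, 0.585 ± 0.426 and 0.238 ± 0.178 RPKM, with log2 fold changes of 1.3 (SE 0.864, adjusted p = 0.23) for ECs and 1.39 (SE 0.866, adjusted p = 0.202) for MSCs over MNCs.

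Between populations, then, 1 member passed for ECs and MSCs, 3 for ECs and MNCs and 4 for MSCs and MNCs, with p-values adjusted over all 16897 genes and a threshold of 0.1. Of these genes, 19% passed as higher in ECs and 20.9% as higher in MSCs, 26.6% as higher in ECs and 26.3% as higher in MNCs, and 26.7% as higher in MSCs and 24.8% as higher in MNCs, respectively. Of the 10 members, 1 was higher in ECs than in MSCs, 1 was higher and 2 lower in ECs than in MNCs, and 1 was higher and 3 lower in MSCs than in MNCs, near or below the share among all genes. The median log2 fold change of the members was -0.01, -0.24 and -0.2 in the 3 comparisons, where that of all genes was -0.01, 0 and -0.02. Comparisons between populations share libraries, so the calls of Mcl1, Pmaip1 and Bid against ECs and against MSCs rest on the same 8 MNC libraries.

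**Figure D4:**
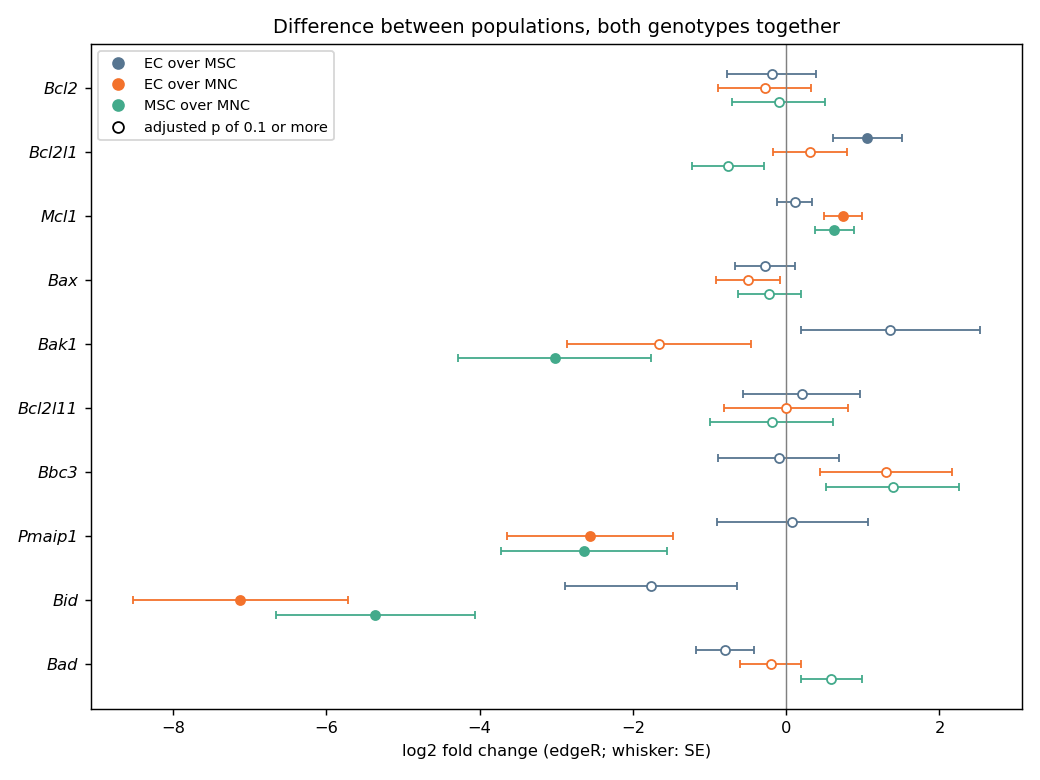
log2 fold change (horizontal axis) of each gene between populations, from edgeR with both genotypes weighted equally, with whiskers of 1 SE. Filled points passed at an adjusted p-value below 0.1. Bid lies farthest from 0, at -7.12 for ECs and -5.36 for MSCs over MNCs, while Mcl1 lies at 0.74 and 0.63.

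No member passed between genotypes in any population by edgeR's quasi-likelihood test. Before adjustment, 0 members in ECs, 0 in MSCs and 1 in MNCs, Bcl2, had a p-value below 0.05, where 4.99%, 4.24% and 10.4% of all genes tested lay below it. The shares of all genes that passed after adjustment were 0.0081%, 0.0295% and 0.0144%. The filter on low counts left out Bak1 in ECs, Bak1 and Bid in MSCs and Bbc3 in MNCs, whose values are given from the fit without it. The median log2 fold change of the members that passed the filter was -0.04, -0.14 and 0, and that of all genes was -0.01, 0.03 and -0.01.

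Bcl2 had higher RPKM in MNCs of Flt3ITD/ITD mice, by an exact permutation test of this gene alone. It did not pass the main test used here, edgeR's quasi-likelihood test over all genes. The paper's rule is wider: passing the 0.1 threshold with 1 of the programs DESeq2 and edgeR is enough, given a log2 RPKM change of at least 1. Bcl2 in MNCs met that rule with DESeq2 as run here (adjusted p = 0.000361), at a log2 ratio of mean RPKM of 1.22. It had 3.84, 4.68, 2.85 and 3.48 RPKM in Flt3+/+ and 7.67, 7.35, 10.35 and 9.25 RPKM in Flt3ITD/ITD libraries. Every Flt3ITD/ITD library lay above every Flt3+/+ library. The means were 3.71 ± 0.764 and 8.65 ± 1.4 (SD, n = 4 each), a ratio of 2.33 (exact two-sided permutation p = 0.0286, unadjusted, the smallest that 4 against 4 can give). The same test was run for every member in each population, and it took no account of replicate number. Of all genes tested in MNCs, 6.71% separated the genotypes in this way, against 1.14% in ECs and 0.914% in MSCs.

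On normalized counts the log2 fold change of Bcl2 in MNCs was 1.08 (SE 0.195), with an adjusted p-value of 0.345 by edgeR's quasi-likelihood test. DESeq2 gave 1.09 (adjusted p = 0.000361) and passed 3.11% of all genes it tested, and the older exact test of edgeR gave 1.08 (adjusted p = 0.00569) and passed 1.18%. Leaving out a library moved the log2 fold change between 0.97 and 1.18, and the adjusted p-value of the main test between 0.164 and 0.672. Bcl2 did not pass with limma on log2(RPKM + 1) (1.04, adjusted p = 0.216) or log2(RPKM + 0.1) (1.21, adjusted p = 0.247), RLE normalization (adjusted p = 0.362), no filter on low counts (0.407), a replicate block (1.07, adjusted p = 0.595), a term for replicates 1 and 2 against 3 and 4 (1.07, adjusted p = 0.216) or a single model of all libraries (1.09, adjusted p = 1). Within replicates 1 and 2, the mean was 4.26 RPKM in Flt3+/+ and 7.51 in Flt3ITD/ITD mice (1.76 times), and within replicates 3 and 4 it was 3.16 and 9.8 RPKM (3.1 times), values with no test, chosen after seeing the data.

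The MNC libraries also differed in their blood cells. The summed RPKM of 7 erythroid markers was 92.9, 37600, 145000 and 131000 in Flt3+/+ and 11500, 22300, 2150 and 8730 in Flt3ITD/ITD mice, and that of 10 neutrophil markers was 212000, 182000, 172000 and 173000, and 184000, 162000, 43900 and 60200, all in the order of replicates 1 to 4. The erythroid sum was higher in 3 of 4 Flt3+/+ libraries than in any Flt3ITD/ITD library, and lowest of all in the other Flt3+/+ library, which had 3.84 RPKM of Bcl2. The Flt3ITD/ITD libraries with 43900 and 60200 RPKM of neutrophil markers had the most Bcl2 (10.35 and 9.25 RPKM), and those with 184000 and 162000 had 7.67 and 7.35. The sum of 9 B cell markers was 359 to 1010 in Flt3+/+ and 203 to 628 in Flt3ITD/ITD mice, with overlap. The part of these cells in the level of Bcl2 was not tested. In bulk libraries, a change in the share of a cell type and a change in the RNA of each cell cannot be told apart.

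Bcl2 made up 5.44% ± 0.992 (SD, n = 4) of the RPKM of the 3 pro-survival members in Flt3+/+ and 13.7% ± 4.49 in Flt3ITD/ITD MNCs. The ranges, 4.46 to 6.37% and 8.89 to 18.9%, did not overlap. The ratio of Bax to Bcl2 was 7.16 ± 2.44 (SD, n = 4) and 3.85 ± 1.2, with overlap. These use the Bcl2 values above and are no further evidence. Bcl2l1 ran the other way in means, from 18.8 ± 7.5 to 13.3 ± 5.75 RPKM (log2 fold change -0.77, SE 0.469, adjusted p = 0.589). Mcl1 had 46.2 ± 18.2 and 44.3 ± 11 RPKM, and the summed RPKM of the 3 pro-survival genes was 68.7 ± 11.1 in Flt3+/+ and 66.3 ± 12.4 in Flt3ITD/ITD MNCs.

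In ECs and MSCs the genotypes could not be separated for Bcl2, which had 8.96, 8.02, 0.09, 2.23 and 3.01 RPKM in Flt3+/+ and 5.28, 1.75, 10.94, 7.12 and 1.11 in Flt3ITD/ITD ECs. In MSCs it had 5.16, 5.8, 1.55, 8.1 and 3.73, and 16.1, 2.1, 2.36, 0.32 and 5.78. The log2 fold changes were -0.26 (SE 0.993) in ECs and -0.15 (SE 0.777) in MSCs. The difference in the effect of genotype on Bcl2 was -1.35 (SE 1.23, adjusted p = 0.932) for ECs less MNCs and -1.23 (SE 1.23, adjusted p = 1) for MSCs less MNCs.

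**Figure D5:**
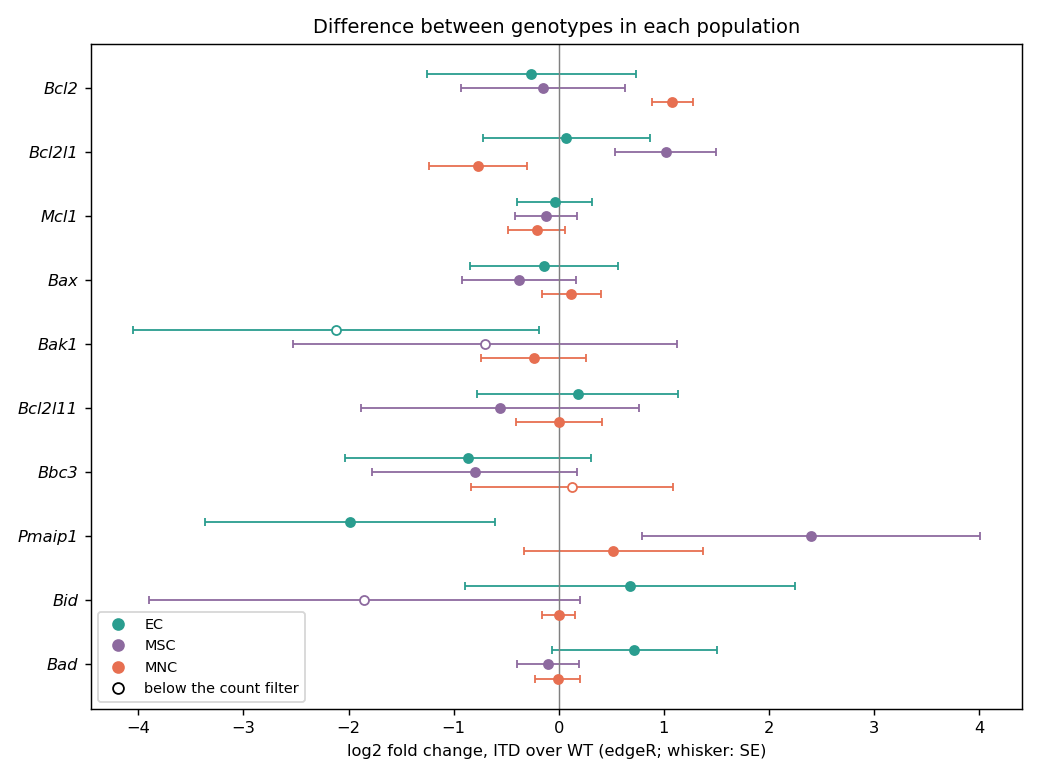
log2 fold change (horizontal axis) of each gene in Flt3ITD/ITD (ITD) over Flt3+/+ (WT) libraries, by population, from edgeR, with whiskers of 1 SE. Open points are genes below the count filter, fitted without it. Bcl2 in MNCs (1.08, SE 0.195) is the farthest from 0 relative to its error, and none passed at an adjusted p-value below 0.1.

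In MSCs, Bcl2l1 came closest to a difference. It had 9.08, 6.08, 6.78, 6.64 and 2.61 RPKM in Flt3+/+ and 21.46, 9.68, 6.77, 15.16 and 7.98 in Flt3ITD/ITD libraries. The upper 3 of the 5 Flt3ITD/ITD libraries lay above all Flt3+/+ libraries, and the other two lay among them. The means were 6.24 ± 2.33 and 12.2 ± 6.09 RPKM (exact two-sided permutation p = 0.0556), and the log2 fold change was 1.02 (SE 0.481, adjusted p = 0.999). Leaving out a library moved it between 0.73 and 1.22, and it was 1.16 without the library that held leukocyte transcripts.

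Pmaip1 had opposite fitted differences in the stromal populations, each set by a single library. In ECs it had 0, 0.23, 0.21, 7.3 and 1.5 RPKM in Flt3+/+ and 0.18, 0.12, 0.22, 0.28 and 1.38 in Flt3ITD/ITD mice (log2 fold change -1.99, SE 1.38, adjusted p = 1), and without replicate 4 of Flt3+/+ ECs the fitted value was -0.2. In MSCs it had 1, 0.26, 0.15, 0.06 and 0.08, and 0.01, 7.09, 0.07, 0.01 and 0.59 (2.4, SE 1.61, adjusted p = 0.999), and without replicate 2 of Flt3ITD/ITD MSCs the fitted value was -0.92. The difference between the 2 effects, -4.39 for ECs less MSCs (SE 2.07), did not pass (adjusted p = 0.451).

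The remaining members also did not pass. Bad in ECs had a mean of 22.3 ± 14.3 RPKM in Flt3+/+ and 35.4 ± 14.1 in Flt3ITD/ITD mice (exact two-sided permutation p = 0.183, n = 5 each). Bax had 27.1 ± 7.07 and 19.8 ± 16.6 RPKM in MSCs, where 3 of 5 Flt3ITD/ITD libraries lay below all Flt3+/+ libraries and 1 above (exact permutation p = 0.389). Bbc3 was lower in the mean in both stromal populations, at 0.824 and 0.452 RPKM in ECs and 0.756 and 0.414 in MSCs, with adjusted p-values of 1 and 0.999. Bid in MNCs had 54.7 ± 5.12 and 63.1 ± 9.25 RPKM with a log2 fold change of 0 on normalized counts (SE 0.155), so that the gap in RPKM was absent after TMM scaling. No effect of genotype on a member differed between populations at an adjusted p-value below 0.1, where 0.379%, 0.0118% and 0.00592% of all genes did for ECs and MSCs, ECs and MNCs, and MSCs and MNCs.

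The length that the authors' program assigned to a gene, which can be read from its count and RPKM, varied for 2 members. For Bcl2 it ran from 3.71 to 7.37 kb over 26 libraries with at least 0.5 RPKM, and for Bcl2l11 from 1.98 to 4.98 kb over 25 libraries. For the other 8 members it varied little, as for Mcl1 (3.54 to 3.57 kb), Bid (1.91 to 1.93 kb) and Bax (0.977 to 1.09 kb). A longer length lowers RPKM for the same count, so RPKM of Bcl2 and Bcl2l11 depends on how reads were shared among transcripts of the gene. In MNCs the length of Bcl2 was 5 to 6.45 kb in Flt3+/+ and 5.21 to 5.76 kb in Flt3ITD/ITD mice, which overlap. Its counts were 369, 416, 262 and 420 in Flt3+/+ and 833, 775, 1184 and 880 in Flt3ITD/ITD libraries, which do not.

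Of 81 further genes of the pathway in 5 lists, 79 were in the table, and none passed between genotypes in any population by edgeR's quasi-likelihood test. Before adjustment, 3 in ECs, 2 in MSCs and 6 in MNCs had a p-value below 0.05, and those named here were chosen after their values were seen. They include Aen, Dynll1 and Trp53inp1 in ECs, Ddit3 and Tradd in MSCs, and Bcl2l13, Birc5, Mlkl, Trp53 and Trp53inp1 in MNCs. DESeq2 passed 2 of them in ECs, Aen (0.612 to 6.19 RPKM) and Trp53inp1 (20.8 to 3.18), both p53 targets and in opposite directions, where it passed 2.63% of all genes. In MNCs the genes it passed include Bcl2l13 (7.34 to 4.71 RPKM) and Birc5, which encodes survivin (216 to 114 RPKM), both lower in Flt3ITD/ITD mice.

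Between populations, the 14 other Bcl2 family genes, of which 12 were tested, gave 1 gene higher in ECs than in MSCs, 2 higher and 5 lower in ECs than in MNCs, and 2 higher and 6 lower in MSCs than in MNCs. Of all genes, 19% passed as higher and 20.9% as lower in ECs than in MSCs, 26.6% and 26.3% in ECs than in MNCs, and 26.7% and 24.8% in MSCs than in MNCs, and the counts of the lists that follow stand against the same shares. Bik, a BH3-only gene, had 22.6 ± 12.8 RPKM (SD, n = 10) in ECs, 0.438 in MSCs and 0.326 in MNCs. Bok, an effector-like gene, had 12.9 ± 9.07 in ECs, 7.23 ± 6.11 in MSCs and 0.218 in MNCs. Bcl2a1a, Bcl2a1b and Bcl2a1d, nearly identical pro-survival genes, were higher in MNCs, at 8.07 ± 13.7 RPKM (SD, n = 8) for Bcl2a1a against 0.013 in ECs. Reads shared by these copies had been discarded, so their levels are uncertain. Hrk was called as higher in MSCs than MNCs at levels near 0 (0.139 and 0.0488 RPKM).

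Of 22 genes of the apoptosome, caspases and their inhibitors, 8 were higher and 2 lower in ECs than in MSCs, 2 higher and 7 lower in ECs than in MNCs, and 1 higher and 13 lower in MSCs than in MNCs, where 26.7% and 24.8% of all genes passed. Casp8, whose product cleaves the protein of Bid, had 39.6 ± 15.8 RPKM in ECs and 4.48 ± 4.12 in MSCs (SD, n = 10 each; log2 fold change 3.13, SE 0.53, adjusted p = 5.01e-05), and 42.5 ± 8.82 in MNCs (SD, n = 8). Diablo (-1.18, SE 0.446) and Vdac1 (-1.1, SE 0.227) differed in the other direction. Birc5, which also marks dividing cells, had 165 ± 73.9 RPKM in MNCs (SD, n = 8), 6.82 in ECs and 1.05 in MSCs, while Xiap and Birc6 were higher in ECs, with log2 fold changes over MNCs of 1.48 (SE 0.296) and 1.49 (SE 0.197), as was Birc6 in MSCs over MNCs (0.68, SE 0.192). Dffb was lower in MSCs than in MNCs (-3.77, SE 1.25).

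Of 12 genes of death receptors and their adaptors, 7 were higher in ECs than in MSCs and none lower, against 19% and 20.9% of all genes, 4 were higher and 2 lower in ECs than in MNCs, and 3 and 3 for MSCs and MNCs. Fas, the receptor gene, had 238 ± 77.5 RPKM in ECs, 58.5 ± 20 in MSCs (SD, n = 10 each) and 25 ± 6.86 in MNCs (SD, n = 8). Tnfsf10, which encodes the ligand TRAIL, had 43.3 ± 16 in ECs, with 2.4 in MSCs and 3 in MNCs, and Fasl was listed at 0 in every MSC library, with 0.067 RPKM in ECs and 2.84 in MNCs. Ripk3 (2.43 in MSCs, 22.8 RPKM in MNCs) and Traf2 (4.64 in ECs, 14.6 in MNCs) were higher in MNCs, and Tnfrsf10b higher in MSCs than in MNCs (8.83 and 5.35 RPKM). Beside these, Bid was near the floor in most EC and MSC libraries.

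Of 18 p53 genes tested, 2 were higher and 6 lower in ECs than in MSCs, 5 higher and 6 lower in ECs than in MNCs, and 5 higher and 4 lower in MSCs than in MNCs. Eda2r had 9.46 ± 9.31 RPKM in ECs and 2.88 ± 1.87 in MSCs (SD, n = 10 each) and was near 0 in MNCs. Phlda3 passed as higher in MSCs (15.2 RPKM) than in ECs (1.97), and in both than in MNCs (0.0238). Perp was higher in MSCs than in ECs (4.07 and 0.066 RPKM), while Trp53i11 was higher in ECs than in MSCs (19.5 and 1.06). Gtse1 also passed as higher in ECs (means of 1.01 and 0.02 RPKM), where its median was 0.03 and its highest library had 9.47 RPKM. In 7 of 10 EC libraries it lay at or under 3 counts. Gtse1 and Sesn2 were higher in MNCs than in either stromal population, at 9.19 and 1.09 RPKM. Of 13 regulators of the levels of BH3-only proteins and Mcl1, 8 were higher in ECs and 6 in MSCs than in MNCs with none lower, against 26.6% and 26.7% of all genes that were higher, and 2 were higher and 2 lower in ECs than in MSCs. Foxo1, which drives transcription of Bcl2l11, had 19.4 ± 7.89 RPKM in ECs, 20.1 ± 6.79 in MSCs and 2.94 ± 1.05 in MNCs, while Bcl2l11 itself did not pass. Mapk8 was higher in ECs than in MNCs (19 and 5.68 RPKM) and Ddit3 in MSCs than in MNCs (73.8 and 23). Fbxw7, whose product marks Mcl1 protein for degradation, was higher in ECs than in MSCs (12.6 and 4.05 RPKM), as was Dynll1 (389 and 270), while Atf4 (138 and 170) and Stat3 (18.4 and 24.1) were lower.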

How the data were processed

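RNA from sorted ECs, MSCs and BM MNCs was amplified with a SMARTer kit, which does not mark strand, and sequenced as single-end reads. The authors aligned reads to mm10 transcripts with Bowtie, discarded reads without a unique position and deposited estimated counts from RSEM as whole numbers. The authors deposited RPKM for the same genes to 2 decimals. Groups and replicate numbers came from the labels. Replicates are separate mice.

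Counts were tested with edgeR 4.0.16 in R 4.3.3, by quasi-likelihood with TMM normalization and filterByExpr, within each population for genotype and over all 28 libraries in 6 groups for populations. Genes passed at a Benjamini-Hochberg adjusted p-value below 0.1 over all genes tested. RPKM gave levels and the exact two-sided permutation tests by genotype, whose smallest p-value is 0.00794 for 5 against 5. Alternatives were DESeq2 1.42.0, edgeR's exact test, limma 3.58.1 on log2(RPKM + 1) or log2(RPKM + 0.1) on genes whose RPKM averaged 1 or more, other normalization, filters, blocks and left-out libraries. Tests were checked on simulated counts with planted changes larger than those of Bcl2 in MNCs and Bcl2l1 in MSCs. Whether differences of that size would be found was not checked.

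The members and lists were chosen with earlier results of these data known. The text names all members, pathway genes past the threshold by genotype, for each list and pair of populations the 2 highest above 0 and the 2 lowest below 0 of the log2 fold changes that passed, and the 3 genes most like each pro-survival member. Any other gene was chosen after its values were seen. A result that this rule would name is not reported here. Bak1, Bcl2l11, Bcl2l1 and Bad each overlap another protein-coding gene in RefSeq. Labels list bone lining cells as the cell type of MNCs too. Same-numbered libraries did not deviate together (14 pairs of genotypes, r from -0.136 to 0.089; 26 pairs of populations, -0.0841 to 0.0411).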

Additional observations from a re-analysis of the deposited data

Results flagged for a closer look

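In 9 of 60 sets of libraries (10 genes in 6 groups), the highest or lowest library stood apart from the rest of its group by Dixon's test. Chance alone gives about 5% of sets where values are normal and sets are independent. Many of these values lay near 0 and the sets share libraries, so the count cannot be set against that share. In Flt3ITD/ITD MNCs, Bcl2l1 was at 4.79 RPKM in replicate 3, with the next at 15.18. In Flt3+/+ ECs, replicate 4 stood apart for 3 genes, Bak1 (6.07 RPKM, next 0.82), Pmaip1 (7.3, next 1.5) and Bid (1.95, next 0.04). In Flt3ITD/ITD MSCs, replicate 5, which held leukocyte transcripts, stood apart for Bak1 (0.88, next 0.01) and Bid (3.43, next 0.33), and replicate 2 for Pmaip1 (7.09, next 0.59). Pmaip1 also stood apart in replicate 5 of Flt3ITD/ITD ECs (1.38, next 0.28) and replicate 1 of Flt3+/+ MSCs (1, next 0.26). The part of amplification from 100 cells in these values was not tested.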

How the results depend on the processing

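The count of members that passed between genotypes was 0 in ECs and MSCs under every alternative run, and in MNCs it was 1, Bcl2, with DESeq2 and with edgeR's exact test. Pathway genes that passed between genotypes numbered 2 in ECs and 3 in MNCs with DESeq2. Between ECs and MSCs the count of 1 member, Bcl2l1, became 2, Bad and Bcl2l1, with DESeq2, RLE normalization or limma on log2(RPKM + 1). Without both libraries that held leukocyte transcripts it was also 2, but these were Bad and Bak1. The count became 0 with limma on log2(RPKM + 0.1), in Flt3ITD/ITD libraries alone or without replicates 2 and 4 of Flt3+/+ MSCs. Leaving out single libraries gave 0 to 2. Between ECs and MNCs the count of 3 became 1 in Flt3+/+ libraries alone. Between MSCs and MNCs the count of 4 became 1 in Flt3ITD/ITD libraries alone, and 2 with limma at either pseudocount or without replicates 2 and 4 of Flt3+/+ MSCs. Bak1 lay under the RPKM cutoff used for limma and so was not tested there. Other causes were not tested, beyond the smaller number of libraries where some were left out.

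The labels do not say that replicate numbers pair libraries, and no pair of same-numbered libraries had a correlation of deviations over 0.1, although immediate-early sums in MNCs differed between replicates 1 and 2 and replicates 3 and 4 in both genotypes. With a replicate block the counts between genotypes were 0 in every population, and those between populations were 0, 3 and 3. Of 11 results for a single member with an unadjusted p-value below 0.1, none changed sign in 375 alternatives, and 24 of these alternatives ended a call and 10 made one. Of the other 45, with p-values of 0.1 or more, 29 changed sign in some alternative (105 of 1198), and none passed with the opposite sign. Because the results were split by their p-values and most alternatives refit nearly the same libraries, this contrast was largely set in advance. For differences between populations, these alternatives include fits without a library of the population not compared, which could hardly move the result. At this depth, members at or under 3 counts could not be ordered.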
